A study of Bos taurus with 8 samples.

Results

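Toll-like receptors, their co-receptors CD14 and LY96, the adaptor MYD88 and the amplifying receptor TREM1 were followed in blood neutrophils of dairy cows around calving. The 10 genes named for this group were TLR1, TLR2, TLR4, TLR6, TLR8, TLR10, TREM1, CD14, LY96 and MYD88. Array probes were assigned to them through the transcript accession printed for each probe, which gave 26 probes for 9 of the 10 genes, out of 43653 probes and 12639 named genes on the array. The naming table lists TLR1 only as a synonym shared by TLR6 and TLR10, so no probe was assigned to TLR1 and no value is given for it. TLR6 had 6 probes, TLR2 and TLR10 had 4 each, TLR4 and MYD88 had 3 each, CD14 and TLR8 had 2 each, and LY96 and TREM1 had 1 each. Probes of a gene share their target transcript and are not replicates.

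Neutrophils came from jugular vein blood of female Holstein Friesian cows, with no treatment named in the labels. The C-14 group was sampled at day -14 relative to the expected calving date and the C+7 group at day 7 after the actual calving. Each group holds 4 single-colour arrays, called before-calving and after-calving replicates 1 to 4 here. Blood of 3 cows is mentioned for the study, against 4 arrays at each time, and the labels name neither the cow behind an array nor any pooling, so the p-values measure the spread between these arrays only.

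Toll-like receptors sit at the cell surface or in endosomes and bind molecules that microbes carry. TLR2 pairs with TLR1 or TLR6 to bind bacterial lipoproteins, and TLR4 binds lipopolysaccharide of Gram-negative bacteria together with LY96 (MD-2), to which CD14 hands the ligand. Most of these receptors signal through MYD88 to the NF-kB transcription factors, and TREM1 amplifies the response in neutrophils and monocytes through the adaptor TYROBP (DAP12). In dairy cows these receptors are studied because udder and uterine infections are frequent after calving.

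Detection of these transcripts was sparse at both times. Of the 26 probes, 9 were called well above background on at least 1 array and 17 on none. The 9 detected probes belong to 8 genes, with TLR6 holding 2 of them, and neither TLR8 probe was detected. TLR8, an endosomal sensor of single-stranded RNA, is therefore without a measured level. Detected probes numbered 7, 1, 6 and 1 on before-calving replicates 1 to 4 and 6, 6, 6 and 0 on after-calving replicates 1 to 4. Over all probes the detected share was 9.57%, 5.45%, 10.3% and 1.79% before calving and 5.10%, 5.25%, 6.32% and 0.893% after calving. Before-calving replicate 2 had 1 of the 26 probes detected (3.85%), a share below that of all its probes, while after-calving replicates 1 to 3, with similar totals, had 6 each (23.1%). No probe of the group was detected on all 8 arrays or on all 6 brighter arrays.

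**Figure D1:**
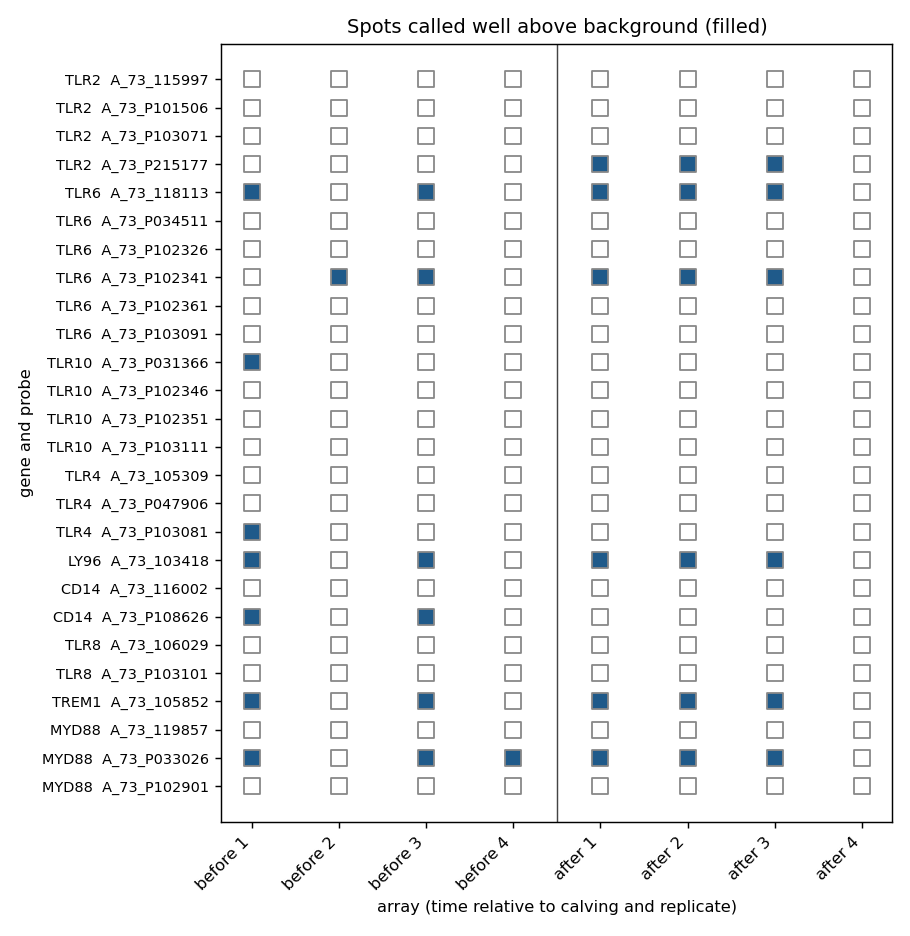
Calls of the extraction software for the 26 probes (rows, with gene symbol) on the 8 arrays (columns), filled where the spot was well above background. After-calving replicates 1 to 3 share the same 6 filled probes, after-calving replicate 4 has 0, and before-calving replicates 2 and 4 have 1 each.

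The arrays differ from each other in ways that touch every value here. After-calving replicate 4 and before-calving replicate 4 had 390 and 780 probes well above background, against 2225 to 4493 on the other 6. The 4 arrays of each time shared 1 slide and 1 scan, so slide and time cannot be told apart. Among the markers of other cells on the 6 brighter arrays, the summed relative intensity of 9 T cell genes was 402% to 467% before calving and 115% to 138% after, and that of the 9 monocyte genes with a probe was 62.6% to 103% before and 25.3% to 28.8% after. Of these monocyte genes only CSF1R was bright enough to be tested, and it fell by 1.64 on the log2 scale (SE 0.26, adjusted p by limma = 0.0358), while VCAN, FCGR1A, CD163, CD68, LGALS3 and FCN1 were detected on no array. The sum of the 5 red cell genes with a probe was 39.7% to 123% before and 128% to 252% after, and that of 4 B cell genes 36.5% to 114% and 53.5% to 85.9%. For 6 natural killer genes it was 33.6% to 50.9% and 13.4% to 20.0%, and for 2 eosinophil genes 103% to 136% and 13.8% to 15.5%. The 2 platelet genes summed to at most 1.76%. The summed intensity of the 10 neutrophil genes with a probe was 1216% to 2536% before and 7143% to 8429% after. Of 6 neutrophil genes tested, LTF, MMP9 and S100A12 rose, the first and the last of these on 1 of their 2 tested probes each. S100A9 was at 0.69, CXCR2 at -0.079 and CXCR1 at -1.27 (adjusted p by limma = 0.0616), none past the threshold, and S100A8 and MPO were detected on no array. Among the other lists, CD247 and CD3E fell of 4 T cell genes tested, GNLY fell of 2 natural killer genes and the eosinophil gene ALOX15 fell. Neither of 2 B cell genes nor the red cell gene HBA passed, and no platelet gene was tested. These rises and falls are from the 6 brighter arrays. On all 8 arrays no marker probe tested passed, with CSF1R at -0.92, CD247 at -2.45 and -2.43 and S100A12 at 1.74 (adjusted p by limma = 0.994 each). LTF, MMP9, CD3E, GNLY and ALOX15 were not tested there. Over all probes, the calls on 6 arrays ran from 4 to 164 with single arrays left out. The part of the marked cell types in the results below was not tested. In RNA of a cell preparation, fewer cells of a type and less RNA per cell cannot be told apart.

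Over all 8 arrays no probe of the group could be compared between the times. To be tested, a probe had to be detected on each of the 4 arrays of one time or the other, and 0 of the 26 probes met this. Of the 489 probes that did, 0 passed an adjusted p of 0.05 with limma (0% called), and 7 had an unadjusted p under 0.05. The comparison was therefore made on the 6 brighter arrays, replicates 1 to 3 of each time, a choice made with results of these data known. There, intensity is given relative to each array's reference, the 75th percentile of the 1111 probes detected on all 6 arrays, and levels below a common floor of 8.58% of the reference (log2 -3.54) were raised to it.

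On the 6 brighter arrays 6 of the 26 probes, for TLR2, TLR6 (2 probes), LY96, TREM1 and MYD88, were bright enough to be tested. All 6 entered through the after-calving arrays, where each was detected on 3 of 3, so the filter itself leaves more room for a positive than for a negative value. None passed the threshold, against 4.98% of the 2229 probes tested (1.75% higher and 3.23% lower after calving). Those 111 calls were 39 higher and 72 lower, and scaling over all probes gave 15 higher and 99 lower. By value, 4 of the 6 were higher after calving and 2 lower (3 and 3 with scaling over all probes), with a median log2 difference of 0.35, beside -0.066 over all 2229 probes. One, a TLR6 probe, had an unadjusted p under 0.05.

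TLR6, the partner of TLR2 for diacylated lipoproteins, gave the largest difference of the group, on its probe A_73_118113. The background-subtracted intensity there was 192, 8.88, 340 and 16.1 scanner units on before-calving replicates 1 to 4 and 239, 634, 452 and 2.01 on after-calving replicates 1 to 4. The 3 after-calving arrays with signal were bright, while before calving only replicates 1 and 3 were called well above background. Relative to the array reference, the level was 35.0%, 2.59% and 46.6% on before-calving replicates 1 to 3 and 84.5%, 170% and 147% on after-calving replicates 1 to 3. On this scale the times did not overlap, as was the case with the after-calving arrays on top for 10.2% of all 2229 probes. That share includes probes that entered through the before-calving arrays and is no like measure. In scanner units the times overlapped, with before-calving replicate 3 at 340 above after-calving replicate 1 at 239. They also overlapped with scaling over all probes and with processed intensity on the 6 arrays. In the main comparison the log2 difference was 2.41 (SE 0.72, 95% interval 0.57 to 4.26, n = 3 arrays at each time), with an adjusted p by limma of 0.148. Before-calving replicate 2 lay at the floor, and without it the difference was 1.61 (adjusted p by limma = 0.115).

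The second detected TLR6 probe, A_73_P102341, behaved otherwise on the same arrays. Its background-subtracted intensity was 21.4, 50.8, 88.6 and 1.32 before calving and 38.5, 48.6, 43.2 and -3.79 after calving. Relative to the reference this was 3.90%, 14.8% and 12.1% on before-calving replicates 1 to 3 and 13.65%, 13.00% and 14.04% on after-calving replicates 1 to 3, so the times overlapped. Before-calving replicate 2, the array on which the other TLR6 probe lay near background, was here the brightest of the 6 arrays by relative level. For the comparison, before-calving replicate 1 was raised from 3.90% to the floor of 8.58%. The difference and the spread before calving are therefore smaller than without the floor. The log2 difference was 0.23 (SE 0.23, 95% interval -0.35 to 0.81, adjusted p by limma = 0.611), and it was -0.12 with scaling over all probes. The remaining 4 TLR6 probes were detected on no array, and their highest background-subtracted intensity was 19.5. No single value is therefore given for the TLR6 gene.

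TLR2, the lipoprotein receptor that pairs with TLR6, was detected on 1 of its 4 probes and only after calving. The background-subtracted intensity of probe A_73_P215177 was 9.61, 22.5, 5.75 and 7.88 before calving and 23.3, 33.5, 66.4 and 3.25 after calving. It was well above background on after-calving replicates 1 to 3 and on no before-calving array, although before-calving replicate 2 at 22.5 nearly reached after-calving replicate 1 at 23.3. Relative levels were 1.75%, 6.58% and 0.787% before calving against 8.25%, 8.96% and 21.6% after calving. They did not overlap before the floor was applied, a scale on which the share over all probes was not counted. With the floor, on which the 10.2% given above was counted, the times were not separate. The after-calving mean was set against each before-calving array's lowest signal well above background, or the probe's own where higher. It was 2.85-fold higher (means of scaled log2 values -3.10 and -4.61). Those limits differed between before-calving replicates 1 to 3 (4.19%, 7.17% and 2.30%), and the ratio carries no spread. Before-calving replicate 2 at 6.58% lay close to after-calving replicate 1 at 8.25%. With the common floor, where all before-calving arrays and after-calving replicate 1 lie, the log2 difference was 0.46 (SE 0.39, 95% interval -0.54 to 1.47, adjusted p by limma = 0.571). The other 3 TLR2 probes never exceeded 7.09 scanner units after background subtraction.

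TREM1, which amplifies inflammatory signals in neutrophils, was detected on 2 of 4 arrays before calving and 3 of 4 after. Its single probe, A_73_105852, gave 217, 4.25, 305 and 6.14 scanner units on before-calving replicates 1 to 4 and 169, 189, 342 and -4.96 on after-calving replicates 1 to 4. In scanner units the bright arrays of both times covered the same range, and before-calving replicates 2 and 4 and after-calving replicate 4 were near 0. Relative to the reference the levels were 39.5%, 1.24% and 41.8% before calving and 59.8%, 50.6% and 111% after calving. The times did not overlap, as for the 10.2% of all tested probes given above, a share that is no like measure here either. With scaling over all probes and with processed intensity on the 6 arrays the times overlapped. In the main comparison the log2 difference was 1.52 (SE 0.73, 95% interval -0.34 to 3.39, adjusted p by limma = 0.320). It was 0.72 without before-calving replicate 2, the array at the floor, and did not pass there either (adjusted p by limma = 0.473).

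**Figure D2:**
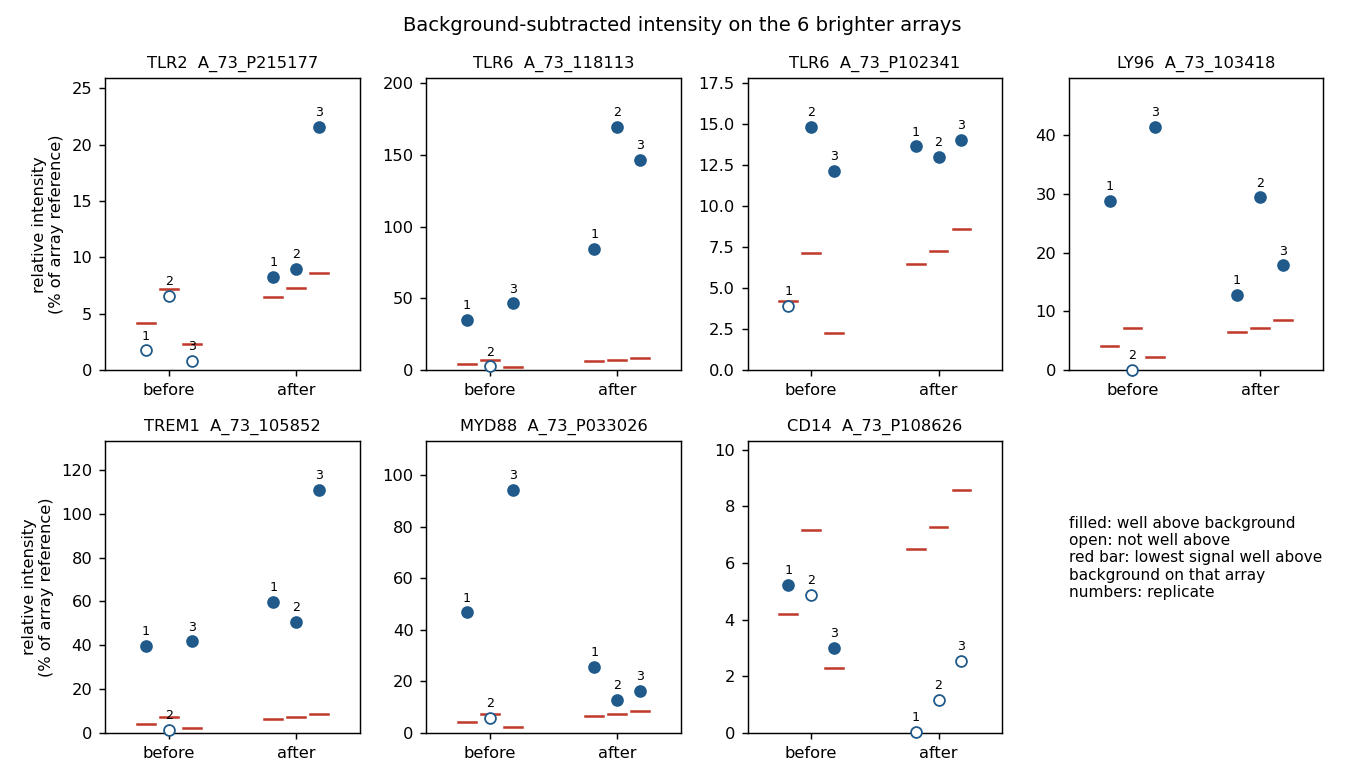
Relative background-subtracted intensity (percent of each array's reference, linear axes starting at 0) on the 6 brighter arrays for the 6 tested probes and the detected CD14 probe, with filled points well above background, open points not, and a red bar at the lowest signal well above background on that array. For TLR6 probe A_73_118113 the after-calving arrays lie between 84.5% and 170%, while CD14 lies at or below 5.21% everywhere, under the after-calving bars.

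Of the transcripts for the proteins that receive lipopolysaccharide, those of TLR4 and CD14 were near the limit of detection and that of LY96 was not. TLR4, the lipopolysaccharide receptor itself, was detected on 1 array by 1 of its 3 probes. That probe, A_73_P103081, gave 41.8, 8.43, -5.57 and 10.3 before calving and 0.918, 12.3, -2.27 and -3.90 after calving, so a single array, before-calving replicate 1, stood out. The other 2 TLR4 probes reached at most 14.7 scanner units. LY96, which binds the lipid part of lipopolysaccharide within the TLR4 complex, was by contrast detected on 5 arrays. Its probe A_73_103418 gave 158, 0.221, 302 and -2.02 before calving and 36.1, 110, 54.9 and -3.15 after calving, with before-calving replicates 2 and 4 near 0 again. In relative terms the levels were 28.8%, 0.0646% and 41.3% before calving and 12.8%, 29.4% and 17.8% after calving, and the times overlapped. For the comparison, before-calving replicate 2 was raised from 0.0646% to the floor of 8.58%, so sign and size of the difference depend on the floor. The log2 difference was -0.20 (SE 0.69, 95% interval -1.95 to 1.54, adjusted p by limma = 0.900). Without that array it was -0.93 (adjusted p by limma = 0.388). It took either sign when single arrays were left out (-0.93 to 0.26) and was 0.63 with another background correction, normexp. The local background of the LY96 spot was marked as an outlier by the extraction software on before-calving replicates 1 and 4.

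CD14, the lipopolysaccharide co-receptor, which is most abundant on monocytes, was detected before calving only. Its probe A_73_P108626 gave 28.6, 16.6, 21.8 and 3.16 scanner units before calving, with replicates 1 and 3 well above background, and 0.0585, 4.40, 7.87 and 1.62 after calving. In scanner units, replicates 1 to 3 before calving were all above every after-calving array. On the 6 brighter arrays 15.3% of the 2229 tested probes showed such an order, counted on floored relative levels. That share is no like measure, as the CD14 probe was not tested and lay at the floor on all 6. Without the floor, its relative levels were 5.21%, 4.86% and 2.99% before calving and 0.0207%, 1.18% and 2.55% after calving. The lowest signal that counted as well above background was 4.19%, 7.17% and 2.30% of the reference on before-calving replicates 1 to 3 but 6.50%, 7.26% and 8.58% on after-calving replicates 1 to 3. A CD14 level as high as that before calving would thus not have been called on the after-calving arrays, no lower limit for a fold can be given, and a fall was not measurable. The second CD14 probe reached at most 4.73 scanner units. The monocyte marker CSF1R fell on the 6 brighter arrays, as given above, but did not pass on all 8, and its relation to CD14 was not tested.

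TLR10, a relative of TLR1 and TLR6 whose ligands are less clear, was detected on before-calving replicate 1 alone. There, probe A_73_P031366 gave 43.1 scanner units, against at most 5.28 on the other 7 arrays, and the other 3 TLR10 probes reached at most 3.89. In the naming table's assembly, ARS-UCD2.0, the annotated spans of TLR10 and TLR6 overlap. On that array TLR6 probe A_73_118113 gave 192 scanner units and A_73_P102341 was not well above background. The 2 TLR8 probes lay between -7.59 and 5.68 scanner units.

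MYD88, the adaptor through which most of these receptors signal, had the probe detected on most arrays, 6 of 8. Probe A_73_P033026 gave 256, 19.4, 689 and 21.1 scanner units before calving and 72.1, 48.0, 49.8 and 8.61 after calving. Before-calving replicates 1 and 3 were the brightest, and replicate 2 before calving was below the 3 brighter after-calving arrays, so the times overlapped. Relative levels were 46.7%, 5.65% and 94.2% before calving and 25.6%, 12.8% and 16.2% after calving. The log2 difference was -0.94 (SE 0.94, 95% interval -3.35 to 1.46, adjusted p by limma = 0.615). Without before-calving replicate 2, which lay at the floor, it was -1.99 (SE 0.47, adjusted p by limma = 0.141), and without replicate 3, the brightest array, it was -0.20 (adjusted p by limma = 0.921). The other 2 MYD88 probes were detected on no array, with intensities from -24.4 to 11.0.

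Before-calving replicate 2 stood apart for several of these genes. It was near background for TREM1, LY96 and the first TLR6 probe and dim for MYD88, yet bright for the second TLR6 probe and, with 22.5 scanner units, the highest of the before-calving arrays for TLR2. Over the 1111 probes detected on all 6 arrays its correlation with the other 5, taken across probes that are no independent replicates, was 0.688 to 0.787. Leaving it out moved the log2 differences of TLR6 probe A_73_118113 from 2.41 to 1.61 and of TREM1 from 1.52 to 0.72. Those of MYD88 went from -0.94 to -1.99 and of LY96 from -0.20 to -0.93. For each of these probes the array lay at the floor.

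**Figure D3:**
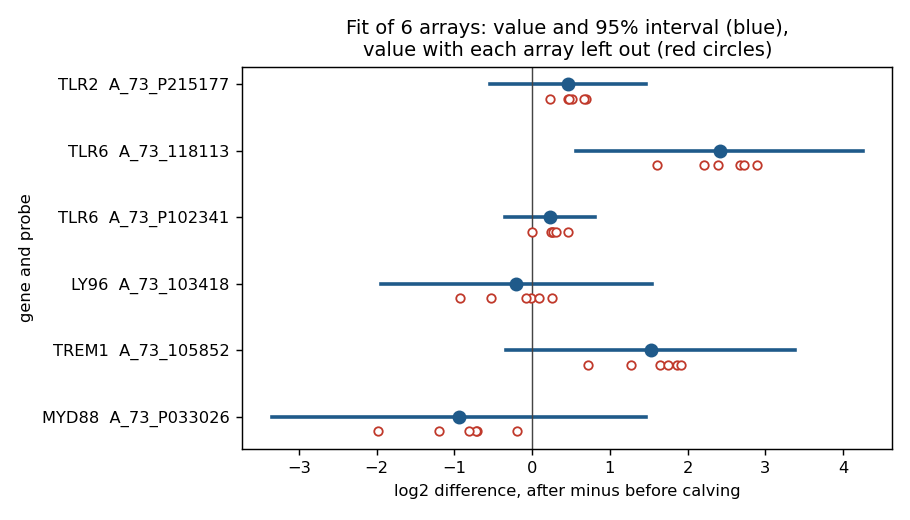
Log2 difference after minus before calving in the fit of the 6 brighter arrays for the 6 tested probes, with the 95% interval (blue bar) and the value with each array left out (red circles). The interval of TLR6 probe A_73_118113 runs from 0.57 to 4.26, and the intervals of the other 5 probes include 0.

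The signal chosen from the scanner files mattered most for the undetected probes. On before-calving replicate 3 the extraction software had applied a fitted multiplicative surface (root mean square of the fit 1.83, 0 on the other 7 arrays). For the 17 probes detected on no array, the processed intensity on that array ran from 1.70 to 583 scanner units, although the background-subtracted intensity there was at most 14.7. On the other 7 arrays the processed intensity of these 17 probes was at most 19.5. For example, TLR2 probe A_73_115997 had a background-subtracted intensity of 1.13 and a processed intensity of 583, and TLR10 probe A_73_P102351 had 1.67 and 219. In all, 8 of the 17 undetected probes had a processed intensity above 50 on that array. Of the detected probes, CD14 probe A_73_P108626 went the other way, from 21.8 to 7.22, and LY96 from 302 to 134. TLR6 probe A_73_118113 rose there from 340 to 623. With processed intensity on the 6 arrays its log2 difference was 2.01 (adjusted p by limma = 0.595). Background-subtracted values are therefore used for the levels and for the comparison on 6 arrays, whereas the fit of all 8 arrays, in which no probe of the group was tested, used processed values.

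**Figure D4:**
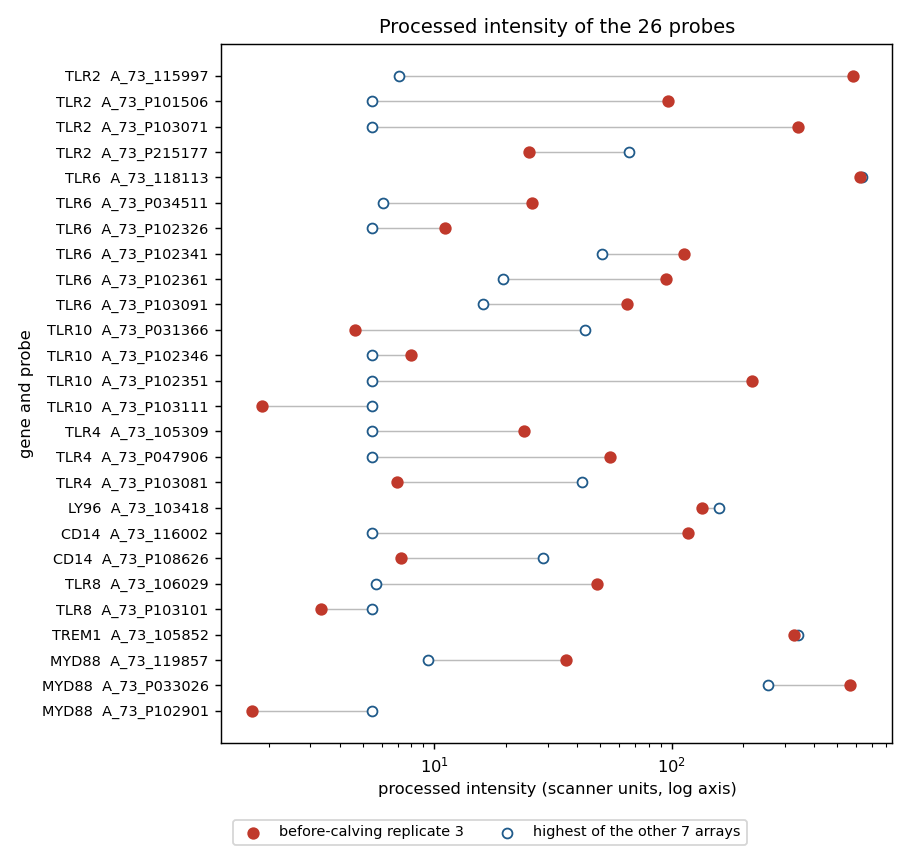
Processed intensity (scanner units, log axis) of the 26 probes on before-calving replicate 3 (red) and the highest of the other 7 arrays (blue circles). TLR2 probe A_73_115997, detected on no array, lies at 583 on that array and at most 7.09 elsewhere.

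Among other genes of the recognition pathways, few were bright enough to be tested and none passed. Of 21 further receptors and co-receptors 17 had a probe, 7 were detected on at least 1 array and 2 were tested on the 6 brighter arrays, with 0 passing (median -0.19). These were LY86, the partner of the receptor CD180 (-0.14, SE 0.12), and CNPY3, a chaperone that Toll-like receptors need to fold (-0.23, SE 0.37). TLR7 and TLR9, which sense nucleic acids, were detected on no array, and TLR3 and TLR5 on 1 each. Of 27 adaptors and kinases 25 had a probe, 13 were detected somewhere and 2 were tested, with 0 passing (median -0.73). BTK, a tyrosine kinase of Toll-like receptor signalling, was at -1.10 (SE 0.32, adjusted p by limma = 0.140), and CHUK, a subunit of the kinase that releases NF-kB, at -0.36. TYROBP, the signalling partner of TREM1, IRAK4, which binds MYD88, and TIRAP were detected on no array, and SYK, a kinase downstream of TYROBP, on 4.

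Of 27 transcription factors and target genes all had a probe, 15 were detected on at least 1 array and 10 were tested, with 0 passing (median -0.14, beside -0.066 over all probes). NFKBIA, the inhibitor that holds NF-kB in the cytoplasm and is itself induced by it, was at -1.31 (SE 0.30, adjusted p by limma = 0.0814). SOD2, a mitochondrial superoxide dismutase, was at 1.23 (SE 0.61) and NFKBIB at 0.87 (SE 0.79). The cytokine genes TNF, IL6 and CXCL8 were detected on no array, and IL1B was detected on 6, at -0.57 (SE 0.53). Over all 8 arrays CNPY3, NFKBIA and RELA were the only genes of these lists bright enough to be tested, at -0.41, -0.96 and -0.37, and none passed.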

How the data were processed

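Total RNA was labelled with Cy3 and hybridised to Agilent bovine arrays, 1 array a sample. Spot intensity, per the file headers, was extracted by Agilent Feature Extraction 10.10.1.1 (the submitters' processing notes name 9.1), with probe annotation on build UMD_3.1. A second deposited table, the series matrix, gives log2 values for these arrays. Scaling by array and centring by probe were read from its values, with no source stating them (array medians -0.128 to 0.0289, and -2.61 on before-calving replicate 3). Its 43711 row numbers are not feature numbers, and rows were matched by probe order, which the values bore out (lowest correlation 0.999 with differences between arrays).

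Spots marked as feature outliers were left out and spots of a probe averaged. Accessions were matched to RefSeq genes of ARS-UCD2.0, which named 26832 of 43653 probes and left 16821 unnamed. Every probe was fitted on its own. For 8 arrays the 75th percentile of the 118 probes that all of them detected was subtracted from log2 processed intensity. On 6 arrays background-subtracted intensity was used. Tests used lmFit and eBayes of limma 3.58.1 (R 4.3.3), two-sided, with Benjamini-Hochberg adjustment over all probes tested. The fits were also run on simulated independent, normally distributed values with known changes. No floor was applied to those values, so that run cannot show how the test behaves with floored values. The 6 arrays are those with over 2000 probes well above background. Where a file column for the mean spot signal was planned for normexp (offset 50), the median spot signal was used. The number of arrays limits the precision.

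The genes, gene lists and tests were chosen with earlier results of these data known. Named genes are every gene of the group with each probe, the genes of each pathway list that passed or had the 3 largest differences on 6 arrays, cell type markers that passed the filter, and genes of like pattern to probes detected on all 6 arrays, of which there were 0. Other genes named from the lists (IL1B, and those given only by the arrays that detected them) were chosen after their values were seen. No label ties same-numbered arrays, and the correlations of their deviations were mixed (-0.251 to 0.278 on 6 arrays, -0.435 to 0.723 on 8 arrays). The numbers were therefore not taken as pairs.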

Additional observations from a re-analysis of the deposited data

Results flagged for a closer look

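Of 74 sets of 4 arrays of a time examined for these probes, 13 had one value distant from the rest. The rule marks about 1 in 20 sets of independent, normally distributed values. Many processed values here are only the lowest value written on their array, and sets share spots, so the 13 cannot be set against that rate. In 8 of them it was the processed intensity of an undetected probe on before-calving replicate 3, the array with the surface correction, while the other 3 before-calving arrays lay between 3.89 and 4.93. These values were 583, 341 and 96.8 for TLR2 probes A_73_115997, A_73_P103071 and A_73_P101506, 54.8 and 23.9 for TLR4 probes A_73_P047906 and A_73_105309, 219 for TLR10 probe A_73_P102351, 117 for CD14 probe A_73_116002 and 48.4 for TLR8 probe A_73_106029.

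The TLR10 probe A_73_P031366 stood apart on before-calving replicate 1, at a processed intensity of 43.1 with the other before-calving arrays at 3.89 to 4.93, and this spot was well above background.

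After-calving replicate 4 had 0 of the 26 probes detected against 6 on each of the other after-calving arrays. Its processed intensity was 4.08 for TREM1 (others 169 to 342) and 4.08 for TLR6 probe A_73_P102341 (others 38.5 to 48.6), the lowest value written on that array, as for 79.4% of its spots. TLR8 probe A_73_106029 on after-calving replicate 1 was at 3.68 against 5.30 to 5.68, with no spot of that probe well above background.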

How the results depend on the processing

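No probe of the group passed on 8 arrays under any of 16 alternatives, and probes of it were tested in only 3 of them (no filter, before-calving replicate 2 left out, after-calving replicate 4 left out). On the 6 brighter arrays 0 passed under 15 of 16 alternatives (in 1, detection on all 6 arrays, none was tested), and 2 passed with normexp, TLR6 probe A_73_118113 at 2.01 (adjusted p by limma = 0.0284) and TLR2 at 1.84 (adjusted p by limma = 0.0479), where the median of all probes was 0.66. Over their alternatives TLR6 probe A_73_118113 ran from 1.14 to 3.61 (adjusted p 0.0284 to 0.958) and TREM1 from 0.31 to 3.25 (adjusted p 0.215 to 1.00), both above 0 in all 15. The 15 are not separate checks of the sign. No filter, the brightest probe of each gene, the replicate block and detection on 2 arrays of a time repeat the main estimate. Both probes also entered only through the after-calving arrays. Over all probes the count on 8 arrays was 0 in the main comparison, 1 with no filter, 16 with array weights and 0 to 1 with single arrays left out (1 without after-calving replicate 4). On 6 arrays it was 111, and 12 with processed signal, 69 with normexp, 65 with no filter, 53 over probes detected on all 6 arrays, 4 in the series matrix (median of all probes 1.03) and 10 with before-calving replicate 4 added. Scaling over all probes gave 15 higher and 99 lower, against 39 and 72, with the median of all probes at -0.58, and normexp gave 65 and 4. With single arrays left out the count on 6 arrays ran from 4 to 164, with 4, 7 and 61 on leaving out after-calving replicates 3, 2 and 1 in turn and 67 without before-calving replicate 3. With the replicate number as a block it was 0 on 6 arrays (450 at an unadjusted p under 0.05) and 0 on 8 arrays, and no probe of the group passed. The correlation of same-numbered arrays, from -0.435 to 0.723 on 8 arrays, was mixed and cannot settle whether the numbers pair them. Replicate 1 was at 0.723 (highest with another number 0.612) and replicate 3 at -0.435 (highest with another number 0.498).

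The sign of some small differences changed. LY96, at -0.20, was at 0.081 with processed signal, 0.63 with normexp, 1.95 in the series matrix, 0.26 without before-calving replicate 3 and 0.092 without after-calving replicate 1 (range -0.93 to 0.26 with single arrays left out). MYD88 was at 0.26 in the series matrix, and TLR6 probe A_73_P102341 at -0.12 with scaling over all probes and -0.00071 without before-calving replicate 1 (range -0.00071 to 0.46). The causes were not tested. A filter on detection on 2 arrays of a time, added after seeing the data, gave 101 calls over all probes and none of the group, and CD14 lay at the floor on all 6 arrays there. A slide term could not be fitted, as 0 of 2 slides hold both times. Low signal over background limits all 26 probes.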
